A study of Mus musculus with 13 samples.

Results

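The EGR, NR4A and IRF4 activation factors are 8 genes linked to lymphocyte activation through antigen or activating receptors, some of them by way of intracellular calcium. The genes are *Egr1*, *Egr2* and *Egr3*, their corepressor *Nab2*, the orphan nuclear receptor genes *Nr4a1*, *Nr4a2* and *Nr4a3*, and *Irf4*. They were picked by gene symbol from a table of 11989 genes in which all 8 were present, and all 8 passed the filter on low values that left 11543 genes for testing. RNA was sequenced from 13 samples of natural killer (NK) cells, innate lymphocytes that kill infected and transformed cells, isolated from spleens of C57BL/6 mice, wild type in genotype. Some cells had been kept in IL-15 (interleukin-15), on which NK cells depend for survival, and some were stimulated with anti-NK1.1. This antibody binds NK1.1, the activating receptor encoded by *Klrb1c*.

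The labels form 5 groups. Naive cells, called fresh in the file header, had no IL-15 culture, and 3 libraries came from unstimulated cells and 3 from cells given anti-NK1.1 over 6 hours. Other cells spent 72 hours in what the labels call LD IL-15 or HD IL-15, without giving the words behind LD and HD. For LD cells, 2 libraries after 6 hours of anti-NK1.1 were analysed and no unstimulated ones. For HD cells, 2 unstimulated libraries and 3 after 6 hours of anti-NK1.1 were analysed. Whether replicates came from different mice or cultures is not stated, so p-values here reflect only the variation among these libraries, possibly technical.

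Early growth response (EGR) proteins are zinc finger transcription factors induced within minutes to hours of receptor signalling through the ERK cascade and, for *Egr2* and *Egr3*, also through calcium, calcineurin and NFAT. NAB2 binds EGR proteins, represses their activity and is itself an EGR target. NR4A proteins are nuclear receptors that act without a known physiological ligand, and in T cells their transcripts serve as a readout of antigen receptor signalling. IRF4 is an interferon regulatory factor that in T cells tracks the strength of receptor signalling and pairs with BATF-type AP-1 proteins on DNA.

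Per the GENCODE M21 annotation of mm10, all 8 are protein-coding genes. *Egr2* lies on chromosome 10 (67535475 to 67542188, plus strand) and *Egr3* on chromosome 14 (70077203 to 70082614, plus strand). *Nab2* lies on chromosome 10 (127660918 to 127668568, minus strand). *Nr4a1* lies on chromosome 15 (101254269 to 101274795, plus strand), *Nr4a2* on chromosome 2 (57106830 to 57124003, minus strand) and *Nr4a3* on chromosome 4 (48045153 to 48086447, plus strand). *Irf4* lies on chromosome 13 (30749226 to 30766976, plus strand).

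Promoter sequence from RefSeq (GRCm38.p6) was at hand for 6 of the 8 genes, *Egr2*, *Nab2*, *Nr4a1*, *Nr4a2*, *Nr4a3* and *Irf4*. The 250 bases before 1 RefSeq start site are printed for *Egr2*, which had among the widest swings with stimulation, and for the 3 NR4A genes, all of which were low in unstimulated HD cells. Each is written 5′ to 3′ on the strand of the gene. Capitals mark CArG boxes (the serum response element core), copies of TGACG (the core of the cyclic AMP response element) and EGR sites (GCGNGGGCG), each searched on both strands, so CGTCA is TGACG on the other strand. The windows are chr10:67537619-67537868 (*Egr2*, plus strand), chr15:101266596-101266845 (*Nr4a1*, plus strand), chr2:57124004-57124253 (*Nr4a2*, minus strand) and chr4:48045055-48045304 (*Nr4a3*, plus strand).
Egr2: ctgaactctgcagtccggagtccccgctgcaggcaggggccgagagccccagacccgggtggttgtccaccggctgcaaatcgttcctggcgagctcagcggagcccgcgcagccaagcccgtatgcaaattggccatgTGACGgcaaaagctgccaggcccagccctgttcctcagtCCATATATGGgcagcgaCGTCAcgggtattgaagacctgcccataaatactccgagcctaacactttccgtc
Nr4a1: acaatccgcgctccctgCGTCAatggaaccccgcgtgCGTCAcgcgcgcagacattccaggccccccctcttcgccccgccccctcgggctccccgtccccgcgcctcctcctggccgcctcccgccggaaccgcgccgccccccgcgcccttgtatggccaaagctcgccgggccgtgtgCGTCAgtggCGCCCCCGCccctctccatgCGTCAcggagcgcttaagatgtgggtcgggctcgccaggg
Nr4a2: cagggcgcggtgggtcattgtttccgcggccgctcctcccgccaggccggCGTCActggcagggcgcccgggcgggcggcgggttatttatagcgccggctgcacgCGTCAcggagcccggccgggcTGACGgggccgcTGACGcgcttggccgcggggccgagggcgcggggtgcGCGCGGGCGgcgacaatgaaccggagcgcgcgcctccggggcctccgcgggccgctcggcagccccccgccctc
Nr4a3: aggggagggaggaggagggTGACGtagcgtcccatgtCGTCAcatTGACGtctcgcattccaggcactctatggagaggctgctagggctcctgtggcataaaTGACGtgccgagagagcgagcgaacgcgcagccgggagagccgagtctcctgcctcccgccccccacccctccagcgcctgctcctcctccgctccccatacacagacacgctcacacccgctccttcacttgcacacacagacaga
The *Egr2* window held a CArG box starting 72 bases before the start site, a motif found in 1.63% of all 32851 promoter windows of 300 bases, and 2 copies of TGACG. The windows of *Nr4a1*, *Nr4a2* and *Nr4a3* held 4 copies of TGACG each. At least 1 copy was found in 20.8% of all windows and at least 4 copies in 0.231%. *Nr4a1* and *Nr4a2* also held 1 EGR site each, a motif found in 5.55% of windows. The *Nab2* and *Irf4* windows held none of these motifs, and *Irf4* held a TATAAA box starting 26 bases before its start site (13.6% of windows). In all, 10 motifs were searched. The *Nr4a2* window also held a TATAAA box on the other strand. No match in these windows was found for the full cyclic AMP response element, the NR4A site or the NFAT core (TGGAAA, 21.4% of windows). The AP-1, NF-κB and IRF motifs had none either. A window at another *Egr2* start site, not printed, held an NFAT core. A match is a description of letters in these windows and not evidence of binding.

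Levels are given as CPM, the back-transformed deposited value as a share of its library's sum, after the authors had brought all libraries to a common distribution. They are compared between libraries for 1 gene and not between genes. Differences are on the log2 scale with their standard error (±), estimated by limma in a joint model of the 13 libraries, with p-values adjusted by the Benjamini-Hochberg method over 11543 genes, and a gene is said to rise or fall where the adjusted p was under 0.05. Reads could be recovered from the order of the values only at low levels (up to 120 to 260 reads, depending on the library), and 155 to 809 genes per library had no read. In bulk RNA, a change in the share of expressing cells and a change in RNA per cell cannot be told apart. *Klrb1c*, the gene of the bound receptor, stood at 614 to 772 CPM in naive unstimulated and 502 to 589 CPM in HD unstimulated libraries, and at 31.0 to 169 CPM in all 8 stimulated libraries. All 10 NK cell markers listed were detected, and their summed level was 11200 to 15000 CPM in the 5 unstimulated libraries and 3890 to 6400 CPM in the 8 stimulated ones. The part of this shift in the responses below was not tested.

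In naive cells, stimulated libraries were compared with unstimulated ones, for which the labels give no incubation of matching length. With anti-NK1.1, 5 of the 8 genes rose (*Egr2*, *Egr3*, *Nab2*, *Nr4a3* and *Irf4*), where 14.5% of all tested genes rose and 29.2% changed. For the same 5 genes the groups did not overlap, as for 42.3% of all tested genes. *Egr1*, *Nr4a1* and *Nr4a2* did not pass the test. The median difference of the 8 genes was 1.71 on the log2 scale, and that of all tested genes 0.01.

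*Egr2*, which encodes a zinc finger factor that restrains T cell responses, stood at 6.36, 8.54 and 7.08 CPM in naive unstimulated replicates 1, 4 and 6, with 66 recovered reads in each. In naive anti-NK1.1 replicates 1, 4 and 5 it stood at 196, 172 and 205 CPM. The groups lay far apart, and *Egr2* rose by 4.69 ± 0.28 (25.9-fold, adjusted p = 6.64e-08), the 11th smallest p-value of the tested genes. *Egr3*, a close relative of *Egr2*, went from 12.2, 11.5 and 26.5 CPM (88 to 237 reads) to 88.9, 106 and 123 CPM. Replicate 6 was the high unstimulated library, still well under every stimulated one, and *Egr3* rose by 2.75 ± 0.32 (6.74-fold, adjusted p = 2.25e-05). *Nab2* went from 17.7, 27.5 and 16.5 CPM to 82.0, 71.5 and 86.0 CPM and rose by 1.99 ± 0.22 (3.96-fold, adjusted p = 1.62e-05), again with no overlap. *Egr1*, an immediate early gene of the family, lies on chromosome 18 (34859823 to 34864984, plus strand). It was already at 177, 209 and 222 CPM without stimulation and was at 195, 222 and 243 CPM with it. Its groups overlapped, and the difference was 0.12 ± 0.21 (adjusted p = 0.718, 95% confidence interval -0.33 to 0.57).

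The NR4A genes divided in the same naive libraries. *Nr4a3*, whose transcript reports NFAT signalling in T cells, went from 142, 242 and 85.0 CPM to 366, 356 and 439 CPM. The unstimulated libraries were widely spread but all lower, and *Nr4a3* rose by 1.43 ± 0.29 (2.69-fold, adjusted p = 0.00237). *Nr4a1*, which encodes Nur77, stood at 134, 167 and 171 CPM without and 141, 111 and 140 CPM with anti-NK1.1, which overlap (-0.27 ± 0.21, adjusted p = 0.364, interval -0.71 to 0.18). *Nr4a2*, which encodes Nurr1, stood at 1006, 838 and 627 CPM without and 620, 767 and 689 CPM with anti-NK1.1, which overlap too (-0.23 ± 0.23, adjusted p = 0.480, interval -0.71 to 0.25). The unstimulated naive libraries also held more of other immediate early genes, such as the AP-1 subunit gene *Jun* at 598 to 1280 CPM against 93.0 to 163 CPM with anti-NK1.1, and their part in the *Egr1*, *Nr4a1* and *Nr4a2* differences was not tested. *Irf4* was at 3.68, 5.26 and 3.96 CPM in the unstimulated libraries (39 to 42 reads) and at 20.2, 21.3 and 20.4 CPM in the stimulated ones. It rose by 2.26 ± 0.25 (4.79-fold, adjusted p = 1.85e-05), and the 3 stimulated libraries lay close together.

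Tested against a fold change of 1.5 instead of none, the call of *Nr4a3* was lost (adjusted p = 0.0580). All 6 libraries of this comparison shared a prefix of the sample names in the file header, read here as a library pool.

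**Figure D1:**
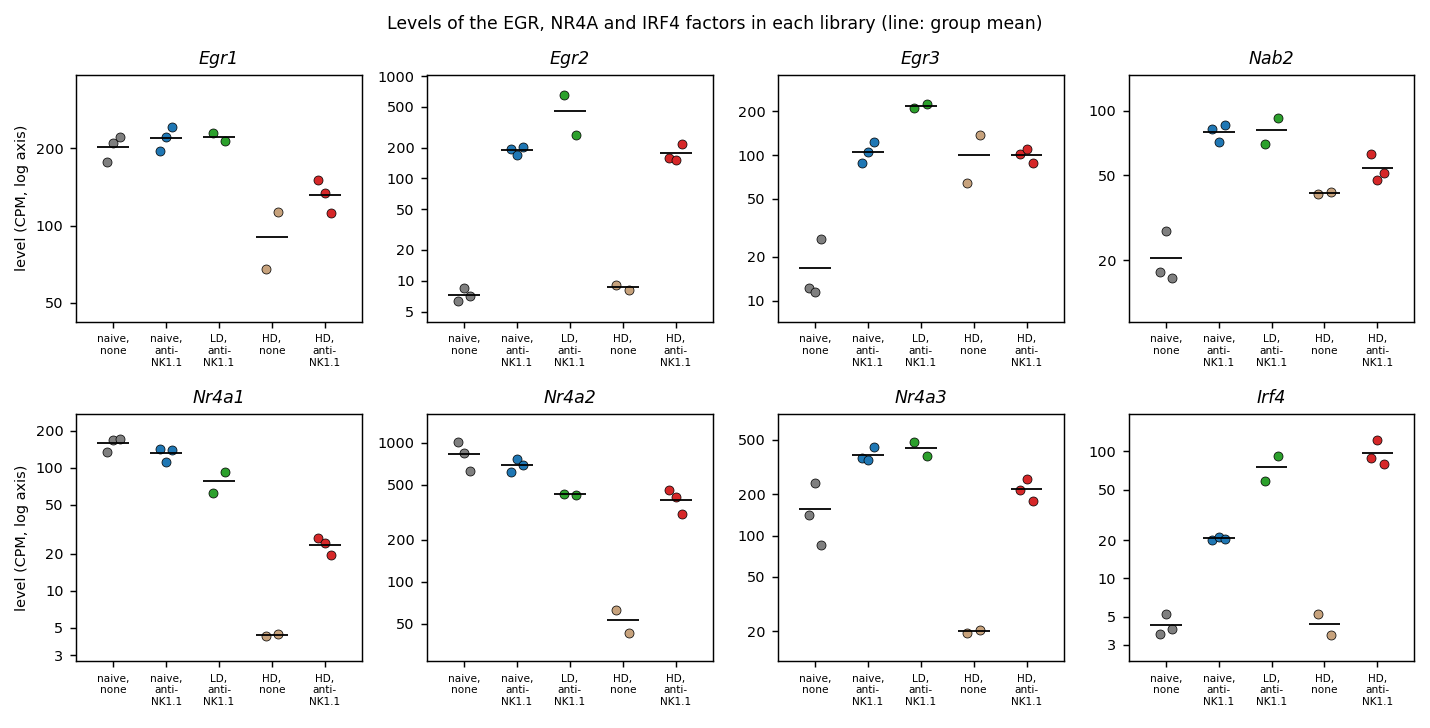
Level of each gene (CPM, log axis) in the 13 libraries by group, with 1 point per library and a line at the group mean (n = 3, 3, 2, 2 and 3 from left to right). *Egr2* and *Irf4* are low in both unstimulated groups, whereas the 3 NR4A genes are lowest in unstimulated HD cells, and *Nr4a1* and *Nr4a2* have their highest mean in unstimulated naive cells.

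The starting point differed between unstimulated HD and unstimulated naive cells. After 72 hours in HD IL-15 the 3 NR4A genes and *Egr1* were lower and *Egr3* and *Nab2* higher, so that 6 of 8 genes changed, where 33.9% of all tested genes did. The groups did not overlap for these 6 genes, nor for 55.8% of all tested genes. *Egr2* and *Irf4* did not pass the test. *Nr4a1* stood at 4.29 and 4.48 CPM in HD replicates 1 and 2 (37 and 54 reads), against at least 134 CPM in each naive library. It fell by 5.13 ± 0.23 (35.1-fold, adjusted p = 2.48e-09), the 9th smallest p-value of the tested genes. *Nr4a2*, at 62.8 and 43.1 CPM, fell by 3.96 ± 0.25 (15.5-fold, adjusted p = 5.50e-08). *Nr4a3*, at 19.5 and 20.5 CPM, fell by 2.83 ± 0.33 (7.12-fold, adjusted p = 1.58e-05), and *Egr1*, at 67.3 and 113 CPM, fell by 1.21 ± 0.24 (adjusted p = 0.00128). For these 4 genes, both HD libraries lay under all 3 naive libraries.

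*Egr3* went the other way. It stood at 63.9 and 138 CPM in the HD libraries, above the 11.5 to 26.5 CPM of the naive libraries, and rose by 2.59 ± 0.35 (6.02-fold, adjusted p = 7.03e-05). *Nab2*, at 40.9 and 41.6 CPM, rose by 1.04 ± 0.25 (2.05-fold, adjusted p = 0.00492). *Egr2* stood at 9.14 and 8.11 CPM (79 and 97 reads), which overlaps the naive libraries (0.24 ± 0.31, adjusted p = 0.582, interval -0.42 to 0.90). *Irf4* stood at 5.22 and 3.58 CPM (46 and 43 reads), around the naive values (0.02 ± 0.28, adjusted p = 0.956, interval -0.58 to 0.63).

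All naive libraries were in pool 2 and all HD libraries in pool 1. Pool and culture therefore cannot be told apart here except through the 2 LD libraries, 1 in each pool. With pool as a term, which rests on that pair, *Nr4a1*, *Nr4a2*, *Nr4a3* and *Egr3* were still called, and the calls of *Egr1* (adjusted p = 0.0864) and *Nab2* (adjusted p = 0.0630) were lost. Against a fold change of 1.5 the same 2 calls were lost (adjusted p = 0.0589 for *Egr1* and 0.183 for *Nab2*). The unstimulated naive libraries, in which *Nr4a1* and *Nr4a2* had their highest means, *Egr1* stood at place 3 of the 5 groups and *Nr4a3* at place 4, also had high levels of other immediate early genes. Of 10 such genes, chosen after their values had been seen and not tested, 8 were higher in every unstimulated naive library than in all other libraries. *Fosb*, an AP-1 subunit, stood there at 651 to 1230 CPM, against 20.2 to 45.7 CPM in naive anti-NK1.1 and 1.73 to 3.41 CPM in HD unstimulated libraries. *Dusp1*, a MAP kinase phosphatase, stood at 311 to 502 CPM, against 54.4 to 76.2 and 12.8 to 17.1 CPM. *Atf3* and *Btg2* were the exceptions among the 10. The share of all tested genes with the pattern of the other 8 was not counted, so that count has no reference. The part that whatever raised these genes had in the NR4A levels was not tested.

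In HD cells, the same stimulus was compared between 3 stimulated and 2 unstimulated libraries of pool 1. All 3 NR4A genes, *Egr2* and *Irf4* rose, so that 5 of 8 genes were higher, where 15.9% of all tested genes rose and 33.1% changed. The groups did not overlap for these 5 genes and *Nab2*, nor for 59.5% of all tested genes. *Egr1*, *Egr3* and *Nab2* did not pass the test. The median difference was 2.64 for the 8 genes and -0.01 for all tested genes. *Irf4* stood at 89.0, 123 and 78.7 CPM in HD anti-NK1.1 replicates 1, 2 and 3, against at most 5.22 CPM without stimulation, and rose by 4.44 ± 0.28 (21.7-fold, adjusted p = 1.20e-07). *Egr2* stood at 157, 150 and 219 CPM and rose by 4.32 ± 0.31 (19.9-fold, adjusted p = 2.96e-07). Both genes lay far above the unstimulated libraries in all 3 stimulated ones.

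*Nr4a3* stood at 214, 258 and 179 CPM and rose by 3.42 ± 0.33 (10.7-fold, adjusted p = 3.78e-06). *Nr4a2* stood at 455, 404 and 307 CPM and rose by 2.88 ± 0.25 (7.37-fold, adjusted p = 1.67e-06). *Nr4a1* stood at 26.9, 24.4 and 19.5 CPM and rose by 2.40 ± 0.23 (5.26-fold, adjusted p = 4.21e-06). Stimulated HD libraries thus had several times the NR4A level of unstimulated HD libraries, yet *Nr4a1* and *Nr4a2* remained under every naive library. *Egr3* stood at 102, 110 and 88.0 CPM, between the 2 unstimulated libraries (0.09 ± 0.35, adjusted p = 0.882, interval -0.67 to 0.84). *Nab2* stood at 62.5, 47.6 and 51.2 CPM, above both unstimulated libraries without passing the test (0.37 ± 0.25, adjusted p = 0.268, interval -0.15 to 0.90). *Egr1* stood at 151, 133 and 112 CPM, and only HD unstimulated replicate 2 (113 CPM) reached into that range (0.59 ± 0.24, adjusted p = 0.0700). Without that replicate *Egr1* was called (0.96, adjusted p = 0.0170). Without HD unstimulated replicate 1 the *Egr3* difference was -0.47 (adjusted p = 0.427).

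The difference between the HD and naive responses was tested directly, as an interaction that uses the same 11 libraries. It passed for 6 of 8 genes, where 15.2% of all tested genes passed. The HD response was greater for 4 genes (7.22% of all tested genes) and smaller for 2 (8.01%). The response of *Nr4a2* was greater in HD cells by 3.11 ± 0.34 (adjusted p = 3.42e-05), that of *Nr4a1* by 2.66 ± 0.31 (adjusted p = 6.86e-05), that of *Irf4* by 2.18 ± 0.38 (adjusted p = 0.00162) and that of *Nr4a3* by 1.99 ± 0.44 (adjusted p = 0.00751). The response of *Egr3* was smaller in HD cells (-2.67 ± 0.48, adjusted p = 0.00180), as was that of *Nab2* (-1.61 ± 0.33, adjusted p = 0.00461). For *Egr2* (-0.38 ± 0.41, adjusted p = 0.588, interval -1.26 to 0.51) and *Egr1* (0.47 ± 0.32, adjusted p = 0.353, interval -0.21 to 1.14) no difference passed. For the 3 NR4A genes, *Egr3* and *Nab2* the unstimulated levels also differed between the culture states, whereas for *Irf4* they did not pass that test. The difference also takes in the immediate early gene levels of the unstimulated naive libraries, whose part was not tested. Against a fold change of 1.5 the calls of *Nab2* (adjusted p = 0.0585) and *Nr4a3* (adjusted p = 0.0534) were lost.

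**Figure D2:**
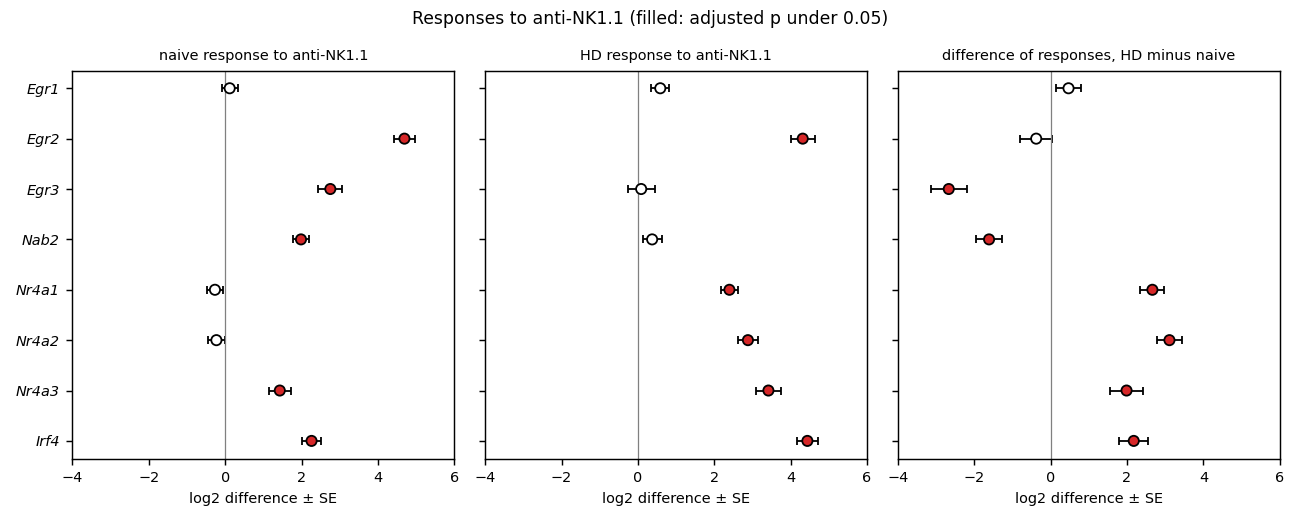
Log2 difference ± standard error for each gene in the naive response, the HD response and the difference between them, with filled points for an adjusted p under 0.05. *Egr2* lies at 4.69 and 4.32 in the 2 responses, while *Nr4a2* lies at -0.23 in naive and 2.88 in HD cells and *Egr3* at 2.75 and 0.09.

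The 3 stimulated groups were then compared with each other. These comparisons share libraries with those above and with one another. Between stimulated HD and stimulated naive cells 6 of 8 genes differed, where 43.5% of all tested genes did. Of the 8, 1 was higher (21.1% of all tested genes) and 5 were lower (22.4%). The groups did not overlap for these 6 genes, nor for 55.4% of all tested genes. *Irf4* was higher in HD cells by 2.20 ± 0.25 (4.60-fold, adjusted p = 1.26e-05). *Nr4a1* was lower (-2.47 ± 0.21, 5.53-fold, adjusted p = 6.48e-07), and *Nr4a2* (-0.84 ± 0.23, adjusted p = 0.00768), *Nr4a3* (-0.84 ± 0.29, adjusted p = 0.0307), *Egr1* (-0.74 ± 0.21, adjusted p = 0.0112) and *Nab2* (-0.57 ± 0.22, adjusted p = 0.0466) were lower by less. *Egr2* (-0.14 ± 0.28, adjusted p = 0.717) and *Egr3* (-0.08 ± 0.32, adjusted p = 0.862) did not pass. Pool and culture cannot be told apart here either, and the pool term is LD replicate 1 minus LD replicate 3 (1.29 for *Egr2*). With pool as a term, *Nr4a1* and *Irf4* were still called, *Egr2* was called lower (-1.42, adjusted p = 0.0395), and *Egr1*, *Nr4a2*, *Nr4a3* and *Nab2* were not called (adjusted p = 0.229 to 0.835). The call of *Nab2* was lost without any 1 of 7 libraries (naive anti-NK1.1 replicates 1, 4 and 5, HD unstimulated replicates 1 and 2, and HD anti-NK1.1 replicates 2 and 3, adjusted p = 0.0513 to 0.146). That of *Nr4a3* was lost without any 1 of 4 (naive anti-NK1.1 replicates 1 and 5 and HD anti-NK1.1 replicates 1 and 3, adjusted p = 0.0589 to 0.102).

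LD cells after anti-NK1.1 carried the highest mean levels of *Egr1*, *Egr2*, *Egr3*, *Nab2* and *Nr4a3* of the 5 groups. Against stimulated naive cells 3 of 8 genes differed, where 13.6% of all tested genes did. Of the 8, 2 were higher (6.57% of all tested genes) and 1 was lower (7%). The groups did not overlap for 5 of the 8, nor for 44% of all tested genes. *Irf4* stood at 58.5 and 91.8 CPM in LD replicates 1 and 3, above every naive library, and was higher by 1.82 ± 0.28 (3.54-fold, adjusted p = 9.30e-04). *Egr2* stood at 649 and 266 CPM and was higher by 1.13 ± 0.31 (2.19-fold, adjusted p = 0.0269), the LD libraries lying 1.29 log2 units apart. *Nr4a1* stood at 62.7 and 92.0 CPM and was lower (-0.77 ± 0.23, adjusted p = 0.0409). *Egr3* stood at 211 and 224 CPM, above every other library in the study, with a difference of 1.05 ± 0.35 that did not pass (adjusted p = 0.0640). *Nr4a2* stood at 430 and 423 CPM, under every naive library (-0.69 ± 0.25, adjusted p = 0.0830). *Nr4a3* (0.15 ± 0.33), *Egr1* (0.02 ± 0.24) and *Nab2* (0.01 ± 0.25) did not pass (adjusted p = 0.804 to 0.984).

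These LD calls rested on few libraries. Without LD replicate 1, the library with the fewest genes without a read, the difference of *Egr2* was 0.49 (adjusted p = 0.339) and that of *Nr4a1* -0.50 (adjusted p = 0.311), and this is also the comparison within pool 2. The call of *Egr2* was lost without each of the 3 stimulated naive replicates in turn as well (adjusted p = 0.0542 to 0.0677). That of *Nr4a1* was lost without naive unstimulated replicate 4, naive anti-NK1.1 replicate 1 or 5, or HD anti-NK1.1 replicate 2 (adjusted p = 0.0529 to 0.109). *Egr3* was called without naive unstimulated replicate 6 or either HD unstimulated replicate (adjusted p = 0.0259 to 0.0420). Within pool 2, LD replicate 3 lay 2.15 log2 units above the stimulated naive mean for *Irf4* and 1.09 above it for *Egr3*.

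Between HD and LD cells, both with anti-NK1.1, 2 of 8 genes differed, both lower, where 8.6% of all tested genes differed, 5.33% lower and 3.27% higher. The groups did not overlap for 6 of the 8, nor for 41.7% of all tested genes. *Nr4a1* was lower in HD cells (-1.69 ± 0.23, 3.24-fold, adjusted p = 3.88e-04), as was *Egr2* (-1.27 ± 0.31, adjusted p = 0.0206). For *Egr1*, *Egr3*, *Nab2* and *Nr4a3* all HD libraries lay under both LD libraries without passing the test (-0.59 to -1.13, adjusted p = 0.0604 to 0.168). *Nr4a2* (-0.15 ± 0.25, adjusted p = 0.782) and *Irf4* (0.38 ± 0.28, adjusted p = 0.478) overlapped. The call of *Egr2* was lost without LD replicate 1 (-0.62, adjusted p = 0.241), HD anti-NK1.1 replicate 1 (adjusted p = 0.0655) or HD anti-NK1.1 replicate 2 (adjusted p = 0.0686). With the compared groups alone it was lost too (adjusted p = 0.118), as it was against a fold change of 1.5 (adjusted p = 0.349), and *Egr3* was called with the compared groups alone (adjusted p = 0.0240). *Egr1* was called without either HD unstimulated replicate (adjusted p = 0.0342 and 0.0346). *Egr3* was called without naive unstimulated replicate 6 or either HD unstimulated replicate (adjusted p = 0.0242 to 0.0422), and *Nr4a3* without naive unstimulated replicate 4 or 6 (adjusted p = 0.0282 and 0.0257). Within pool 1, stimulated HD cells differed from LD replicate 1 by -1.42 log2 units for *Nr4a1* and by -1.91 for *Egr2*.

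**Figure D3:**
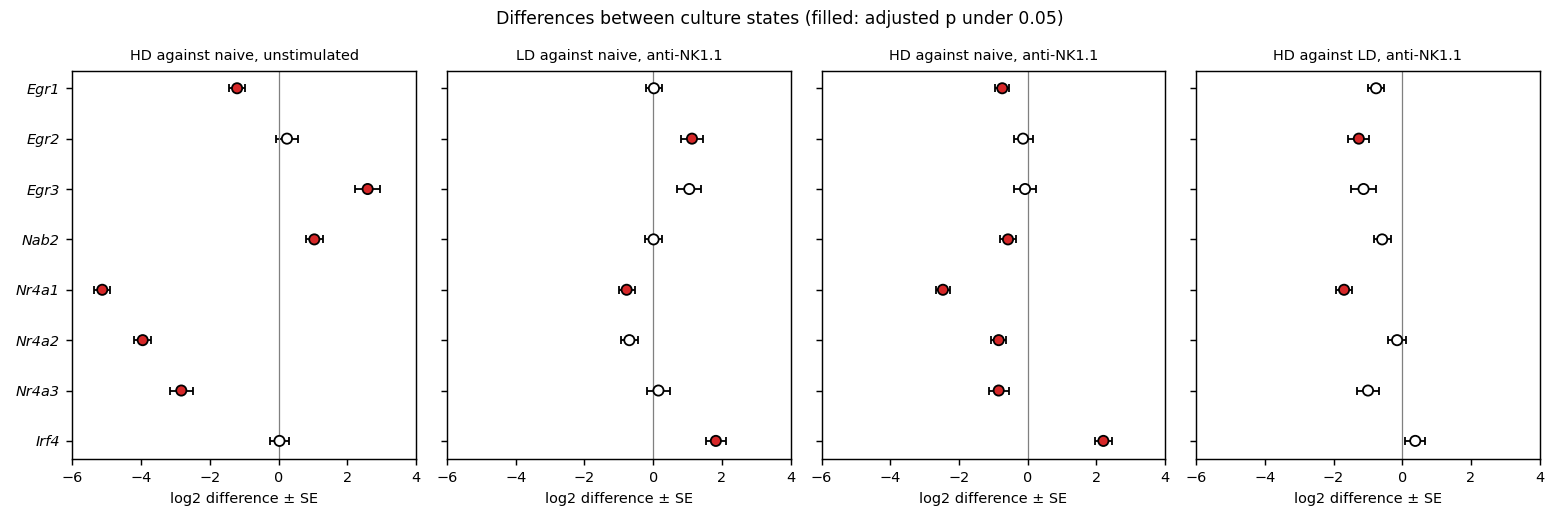
Log2 difference ± standard error for each gene in the 4 comparisons of culture states, with filled points for an adjusted p under 0.05. *Nr4a1* lies at -5.13 in unstimulated and -2.47 in stimulated HD cells relative to naive cells, and *Irf4* lies at 0.02 in unstimulated HD cells, at 1.82 in stimulated LD and at 2.20 in stimulated HD cells.

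The order of the group means differed between the genes. *Nr4a1* and *Nr4a2* ran from naive unstimulated through naive stimulated, LD and HD stimulated down to HD unstimulated cells, with overlap between the 2 naive groups for both genes and between LD and stimulated HD cells for *Nr4a2*. *Irf4* ran from stimulated HD through LD (overlapping) and stimulated naive to the 2 unstimulated groups (overlapping). *Egr2*, *Egr3* and *Nab2* ran from LD through stimulated naive to stimulated HD cells, with naive unstimulated cells last. Of these neighbours, stimulated naive and stimulated HD libraries overlapped for *Egr2* and *Egr3*, LD and stimulated naive libraries overlapped for *Nab2*, the 2 unstimulated groups overlapped for *Egr2*, and the 2 HD groups overlapped for *Egr3*. *Nr4a3* and *Egr1* started with LD and stimulated naive cells, which overlapped, and ended with unstimulated HD cells.

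Genes with the most similar profile were ranked by Pearson's r of the deposited log2 values over the 13 libraries, among 7123 genes at a mean of at least 10 CPM. The libraries fall into 5 groups and share their normalization, so r describes likeness and carries no test. *Egr2* was closest to *Foxa3* (0.98), *Xpot* (0.97) and *Crtam* (0.97), *Egr3* to *Cstf1* (0.94), *Ncf4* (0.93) and *Zfp322a* (0.93), and *Nab2* to *Shmt2* (0.95), *Ap1g1* (0.94) and *Aldh18a1* (0.94). *Egr1* was closest to *Plbd2* (0.93), *Ide* (0.91) and *Taz* (0.91). *Nr4a1* was closest to *Tgif1* (0.99), *Btg1* (0.97) and *Nr1d2* (0.97), *Nr4a2* to *Coq10b* (0.98), *Cebpb* (0.96) and *Pogk* (0.95), and *Nr4a3* to the hyaluronan receptor gene *Cd44* (0.97), *Nfkbid* (0.97) and *Slc3a2* (0.96). *Irf4* was closest to *Odc1* (0.98), *Ipo4* (0.97) and the chemokine gene *Xcl1* (0.97).

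Genes around the 8 factors were counted by list, to be read against all tested genes, of which 14.5% rose and 14.7% fell in naive cells and 15.9% rose and 17.2% fell in HD cells. Of 26 tested genes of calcium entry, calcineurin and NFAT, 4 rose and 7 fell in naive cells, and 4 rose and 7 fell in HD cells (medians of -0.19 and -0.26). The share that rose was near that of all tested genes, and the share that fell was above it in both responses. The list as a whole was not tested. *Camk4*, a calcium and calmodulin-dependent kinase, rose in naive (2.42 ± 0.27, adjusted p = 1.99e-05) and HD cells (1.40 ± 0.31, adjusted p = 0.00295). *Plcg2*, the phospholipase that releases inositol trisphosphate, fell in both (-1.80 ± 0.21 in naive and -1.41 ± 0.24 in HD cells), as did *Itpr3*, a receptor for that messenger (-0.88 ± 0.22 and -1.94 ± 0.25). *Orai1*, the pore of the store-operated calcium channel, rose in HD cells (1.90 ± 0.26, adjusted p = 7.49e-05), from 67.8 ± 7.07 to 256 ± 57.0 CPM (SD, n = 2 and 3). In naive cells it was at 412 ± 112 CPM (n = 3) without stimulation, with a difference of 0.07 ± 0.23 (adjusted p = 0.846).

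Of 22 tested genes of the ERK cascade and serum response, 4 rose and 4 fell in naive cells, and 4 rose and 5 fell in HD cells (medians of -0.14 and 0.04), shares near those of all tested genes. *Spry2*, an inhibitor of Ras and ERK signalling, fell by 1.91 ± 0.22 in naive cells (adjusted p = 2.03e-05) and rose in HD cells (1.39 ± 0.24, adjusted p = 5.76e-04). *Mapk3*, which encodes the kinase ERK1, fell by 2.34 ± 0.23 in HD cells (adjusted p = 5.50e-06) and changed by -0.48 ± 0.21 in naive cells (adjusted p = 0.0994). *Rasgrp1*, a Ras activator, fell in both (-1.04 ± 0.22 in naive and -1.47 ± 0.25 in HD cells), as did the ERK-activated kinase gene *Rps6ka1* (-1.29 ± 0.20 and -1.19 ± 0.23).

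Of 13 listed partners and relatives of EGR and NR4A factors, 11 were tested, of which 1 fell in naive cells and 3 rose in HD cells (medians of -0.12 and 0.19). *Rxra*, which encodes a dimer partner of NR4A1 and NR4A2, fell by 1.20 ± 0.25 in naive cells (adjusted p = 0.00250) and rose in HD cells (1.03 ± 0.28, adjusted p = 0.0106), a call lost without HD unstimulated replicate 2 (adjusted p = 0.0693). *Egr4*, the remaining EGR gene, had no read in either unstimulated HD library and 37, 42 and 48 reads in the stimulated ones. Against a floor of 3 reads per library its mean was at least 8.05-fold higher, a ratio that carries no test. The limma test on the deposited values, without that floor, gave adjusted p = 1.72e-05. In naive cells it had 53 reads over the unstimulated and 54 over the stimulated libraries (adjusted p = 0.425). *Nab1*, the corepressor related to *Nab2*, changed by 0.44 ± 0.17 in naive (adjusted p = 0.0613) and 0.31 ± 0.19 in HD cells (adjusted p = 0.226).

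Lymphocyte genes linked to EGR and NR4A factors in T cells had 11 of 25 tested genes higher and 5 lower in naive cells, and 8 higher and 4 lower in HD cells (medians of 0.97 and 0.30). *Crtam*, an adhesion receptor of activated lymphocytes, stood at 28.5 to 32.1 CPM in naive and 27.2 to 27.5 CPM in HD unstimulated libraries, and at 501 to 587 and 1190 to 1300 CPM with stimulation. It rose by 4.17 ± 0.16 and 5.50 ± 0.18 (adjusted p = 1.58e-09 and 7.62e-11). *Bcl2l11*, which encodes the proapoptotic protein BIM, rose by 4.04 ± 0.25 in naive and 1.25 ± 0.27 in HD cells. *Rnf128*, which encodes the ubiquitin ligase GRAIL, fell by 2.69 ± 0.37 in HD cells (adjusted p = 7.77e-05) and changed by -0.69 ± 0.33 in naive cells (adjusted p = 0.131).

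Of 17 IRF4 partners and linked factors, 7 rose and 3 fell in naive cells, and 5 rose and 2 fell in HD cells (medians of 0.43 and -0.08). *Batf3*, a BATF-type AP-1 factor, went from 0 and 1 read in unstimulated HD libraries to 15.4 to 25.6 CPM with stimulation (adjusted p = 2.20e-07), and in naive cells it fell by 1.93 ± 0.42, from 177 reads over the unstimulated to 66 over the stimulated libraries (adjusted p = 0.00366). *Nfkb1*, an NF-κB subunit gene, rose by 1.53 ± 0.18 in naive and 1.51 ± 0.20 in HD cells. *Stat3* rose by 2.35 ± 0.17 in naive cells (adjusted p = 3.61e-07) and changed by -0.24 ± 0.19 in HD cells (adjusted p = 0.370).

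**Figure D4:**
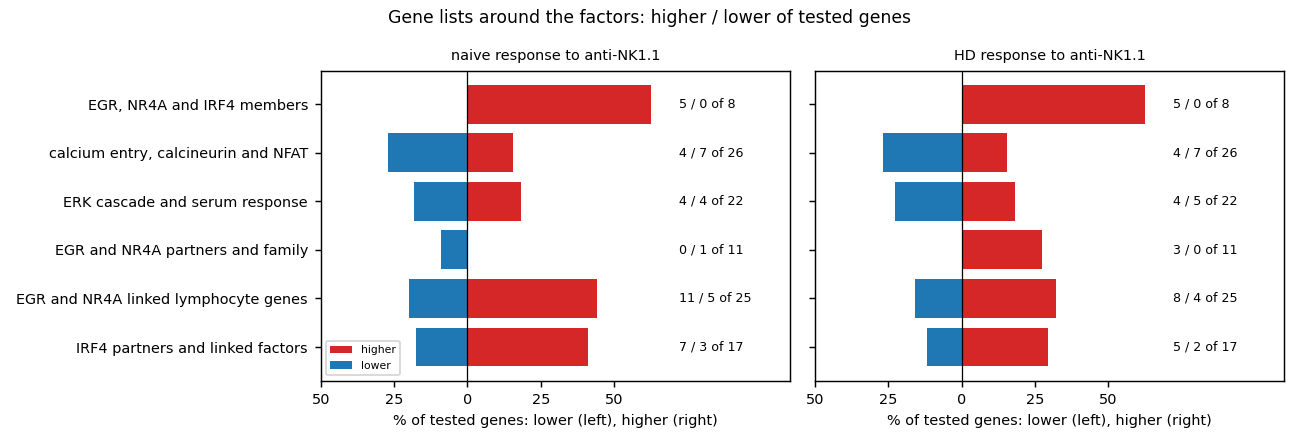
Share of tested genes in each list that rose (right) or fell (left) after anti-NK1.1 in naive and HD cells, with the counts printed beside each bar. The 8 factors stand at 5 higher in both, whereas calcium and NFAT genes stand at 4 higher and 7 lower in both.

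Markers of other cells that express some of these factors were read beside the results. *Irf4* is also a gene of B cells, plasma cells and dendritic cells. Of the 6 measured B and plasma cell markers, *Ms4a1* and *Cd79a* had no read in any LD or HD library. The others, *Cd22* and *Jchain* among them, had reads in the LD and in the stimulated HD group. *Irf4* stood at 58.5 to 123 CPM in the 5 stimulated LD and HD libraries. *Xbp1* stood at 59 to 82 CPM in naive unstimulated and 72.1 to 92.9 CPM in naive stimulated libraries. It stood at 162 to 179 CPM in LD, 104 to 106 CPM in HD unstimulated and 141 to 254 CPM in HD stimulated libraries. The part of B and plasma cells in the *Irf4* levels was not tested. The 5 measured B and plasma cell markers other than *Xbp1* summed to at most 24.3 CPM in any library. Of the 12 measured macrophage, monocyte and dendritic cell genes, only *Flt3* and *Siglech* had no read in any HD library. The macrophage, monocyte and dendritic cell list, without *Fcer1g*, which NK cells express, summed to 726 to 922 CPM in naive, 328 to 431 CPM in LD and 80.1 to 216 CPM in HD libraries. Of the list's 12 tested genes, *Fcer1g* included, 10 were lower in unstimulated HD than in unstimulated naive cells, where 17.3% of all tested genes were. The NR4A genes and *Egr1* were also lower in that comparison. In the naive response 3 of the 12 fell, as did 14.7% of all tested genes. In the HD response 2 of the 12 rose and 2 fell, where 15.9% of all tested genes rose and 17.2% fell. Their part in these differences was not tested. The 4 measured T cell markers summed to 61.5 to 71.1 CPM in naive unstimulated and 14.7 to 44.7 CPM in all other libraries. Basophil and mast cell markers summed to 63.8 to 283 CPM and neutrophil markers to 3.60 to 26.5 CPM. Of the 6 basophil and mast cell genes, 4 fell and 1 rose in the naive response (14.7% and 14.5% of all tested genes). In unstimulated HD against unstimulated naive cells 4 were lower and 1 higher, where 17.3% and 16.6% of all tested genes were. *Fcer1a* and *Ms4a2* had no read in any HD library, and none of the 6 changed in the HD response. Erythroid and platelet markers summed to 357 to 2130 CPM, most of it *Car2* (250 to 2050 CPM), and their hemoglobin genes *Hba-a1* and *Hbb-bs* had no read in the HD libraries. In unstimulated HD against unstimulated naive cells, 6 of the 7 tested erythroid and platelet genes were lower. So were 4 of 6 B and plasma cell, 2 of 4 T cell and 1 of 4 neutrophil genes. The part of these other cells in the differences was not tested.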

How the data were processed

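Poly(A) RNA libraries were made with a strand-specific protocol in which barcoded samples were pooled, per the labels' protocols. Sample names in the file header carry 2 prefixes, which are read here as library pools. The authors deposited log2 values of 11989 genes in 13 libraries. By their values these are log2(count + 1) after quantile normalization, with whole reads recoverable only at low levels. The build is mm10, per the submitters' processing notes. The aligner, the counting and the normalization tool are not given in the sources used here.

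The test covered the 11543 genes that reached 10 on the back-transformed scale in 2 or more libraries (446 were removed) and was done with limma 3.58.1 in R 4.3.3. A model of 5 groups had 8 residual degrees of freedom, to which the trended variance prior added 6.3, 7 contrasts were taken, and two-sided p-values were adjusted by the Benjamini-Hochberg method. CPM is the back-transformed value scaled to the library's sum, which normalization makes equal, so absolute changes in total RNA cannot be seen. Reads were recovered from the rank of the distinct values. The fit and the recovery were tested on simulated data. Reads without molecular identifiers are not independent molecules.

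All 8 genes are named in each comparison. From each other list, the 2 genes with the smallest p in each response are named, and for each of the 8 genes the 3 with the highest r. The genes and lists were chosen with earlier results of these data known. Some listed genes were not analysed here, and 1 gene that this rule names is not reported here. Figures were drawn with matplotlib 3.10.9. Alternatives comprised another scaling, offset, filter, variance model and threshold, the compared groups alone, the replicate number or library pool as a term, and each library left out.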

Additional observations from a re-analysis of the deposited data

Results flagged for a closer look

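Of the 8 genes, 6 had responses to anti-NK1.1 that differed between HD and naive cells in the limma test of the difference itself (adjusted p over 11543 genes). The HD response exceeded the naive response by 3.11 log2 units for *Nr4a2*, 2.66 for *Nr4a1*, 2.18 for *Irf4* and 1.99 for *Nr4a3*, with adjusted p between 3.42e-05 and 0.00751. It was lower by -2.67 for *Egr3* (adjusted p = 0.00180) and -1.61 for *Nab2* (adjusted p = 0.00461). These calls held without each of the 13 libraries in turn.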

How the results depend on the processing

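Leaving out 1 library at a time, the number of the 8 genes called was 5 to 5 in the naive response, 5 to 6 in the HD response, 6 to 6 in unstimulated HD against naive, 4 to 6 in stimulated HD against naive, 1 to 4 in LD against naive, 1 to 4 in HD against LD and 6 to 6 in the difference of responses. All genes called ranged, in the same order, over 2708 to 3347, 2509 to 3935, 2417 to 3996, 4160 to 5089, 660 to 1604, 444 to 1022 and 1198 to 1731. Uncalled differences changed sign without single libraries. Their ranges were -0.064 to 0.096 for *Egr1*, -0.19 to 0.21 for *Nab2* and -0.017 to 0.32 for *Nr4a3* in LD against naive, -0.20 to 0.037 for *Egr3* in stimulated HD against naive and -0.47 to 0.64 in the HD response, -0.24 to 0.29 for *Irf4* in unstimulated HD against naive, -0.28 to 0.010 for *Nr4a2* in HD against LD and -0.17 to 0.24 for *Orai1* in the naive response.

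Against a fold change of 1.5, all genes called numbered 1109, 1682, 1737, 2243, 357, 301 and 661 in the same order, and the 8 genes gave 2 calls in stimulated HD against naive, 1 in LD against naive and 1 in HD against LD. Without the variance trend LD against naive gave 1 call among the 8, and with the compared groups alone it gave 905 calls over all genes. In that limma fit of the compared groups alone, *Egr2* (adjusted p = 0.103) and *Nr4a1* (0.0987) were no longer called, and *Egr3* was (0.0331). Same-numbered libraries did not deviate together more often than others (1 of 13 pairs above a correlation of 0.1, against 7 of 54 other pairs). With groups of 2 or 3 libraries, this check cannot decide whether a shared number marks a shared mouse or culture. With the replicate number as a block, all genes called were 1864 in the naive response, 2042 in unstimulated and 2296 in stimulated HD against naive, 225 in LD against naive, 577 in HD against LD and 856 in the difference. Among the 8 genes that block gave 2 calls in stimulated HD against naive and 0 in LD against naive by limma, where 3 of the 8 had an unadjusted p under 0.05, and *Egr2* changed sign in stimulated HD against naive (0.21). The block ended the calls of *Egr2* in HD against LD (adjusted p = 0.0985) and of *Nab2* in unstimulated HD against naive (0.0815) and in the difference (0.0706), and added *Egr3* (0.0302) and *Nr4a3* (0.0460) in HD against LD.

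With library pool as a term, which rests on the 2 LD libraries, all genes called were 1006 in unstimulated and 1107 in stimulated HD against naive, 658 in LD against naive and 444 in HD against LD. The 8 genes gave 3 calls in stimulated HD against naive and 1 in LD against naive. Signs changed for *Egr2* in unstimulated HD against naive (-1.04), *Egr3* in stimulated HD against naive (0.0027), and *Egr1* (-0.030) and *Nr4a3* (-0.017) in LD against naive. With 1 LD library in each pool, the pool term is LD replicate 1 minus LD replicate 3 (1.29 for *Egr2*, -0.081 for *Egr3*). This gap was taken off the HD against naive differences, and LD against naive became LD replicate 3 alone. Whether the gap comes from the pools or from these 2 libraries was not tested. Another scaling, an offset of 8, both filters and a robust variance moved no count of calls by over 1.5 times. Low reads limit *Irf4* and *Egr2* in both unstimulated groups and *Nr4a1* in unstimulated HD cells.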
